A study of Sus scrofa with 22 samples.

Results

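The genes described here are 10 genes that mark T cells and natural killer cells: CD3D, CD3E, CD3G, CD8A, CD2, NKG7, GNLY, CCL5, IL2RB and KLRK1. They were chosen by symbol, as a named list. All 10 were among the 24358 genes counted in the jejunal mucosa of 22 Ossabaw pigs, and all 10 passed the filter on low counts that left 13626 genes for testing.

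All pigs were of the Ossabaw breed and ate isocaloric diets with 38% of energy from fat for 6 months. The WD_S group (7 pigs) ate a Western pattern rich in cholesterol, butter fat, sugar and white flour and received atorvastatin, a cholesterol-lowering drug, at 20 mg per day for 3 months and 40 mg per day for the next 3 months. The HHD group (7 pigs) ate a heart healthy pattern rich in unsaturated oils, whole grain, fruit and vegetables, was given fish oil capsules of 1000 mg, and received no statin. The HHD_S group (8 pigs) had that pattern, the same capsules and the same atorvastatin schedule. WD_S had no such capsules, so each comparison of diet also includes the fish oil. The statin in WD_S rests on the diet label of each sample. The abbreviation in those samples' titles, ARST, is tied by the series' design text to the Western pattern without the drug, and this conflict bears on every WD_S value below. Pigs labelled as fed the Western pattern without atorvastatin are not analysed here, so diet was compared only under the drug and the drug only under the heart healthy pattern. Each library is 1 pig, and the sex of each pig is not given in the labels used here.

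T cells carry a receptor for antigen that signals through the CD3 chains. In the small intestine many of them sit between the epithelial cells, often with the CD8 coreceptor, and share with natural killer cells a store of cytotoxic granules and receptors for stress signals on epithelial cells. The cytokines IL-2 and IL-15, which act through IL2RB, are known to maintain both cell types in the gut lining.

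Total counts were 15316437 to 31564022 per library, and no pair of libraries held the same counts within sampling noise. A tag in the deposited file names puts 13 libraries in pool 3 and 9 in pool 4, unevenly over the groups (3 and 4 of WD_S, 5 and 2 of HHD, 5 and 3 of HHD_S), and the fits carried a term for it unless a setting is said to differ. The 11 enterocyte markers tested were detected in every library. The sucrase gene SI was at a CPM (reads scaled to a common library size) of 3745 to 11210 and the brush border gene VIL1 at 981 to 1899 CPM. Of the others, APOA4 was at 60.2 to 2860 CPM and CDX1 at 2.57 to 9.88 CPM. In these bulk libraries fewer cells of a type and less RNA per cell cannot be told apart. CPM below are scaled by the trimmed mean of M values (TMM), are not divided by transcript length, and so are compared between pigs and not between genes.

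The 10 genes varied between pigs, and no member differed between any pair of groups in edgeR's quasi-likelihood test. After group and pool were fitted, the members' SDs of log2 CPM were larger than those of 60.1% (IL2RB) to 99.1% (GNLY) of tested genes. Each member spanned 2.50-fold to 22.3-fold over the 22 pigs, a span of single pigs that cannot be set against differences of group means. The pigs at the ends of that span were largely the same for every gene. HHD_S 5 was among the highest 3 pigs for 10 of 10 members and HHD_S 7 for 8. At the other end, HHD_S 6 was the lowest pig for 8 members and among the lowest 3 for all 10, and WD_S 5 was among the lowest 3 for 9. HHD_S thus held the highest pig for 8 members and the lowest for 8.

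**Figure D1:**
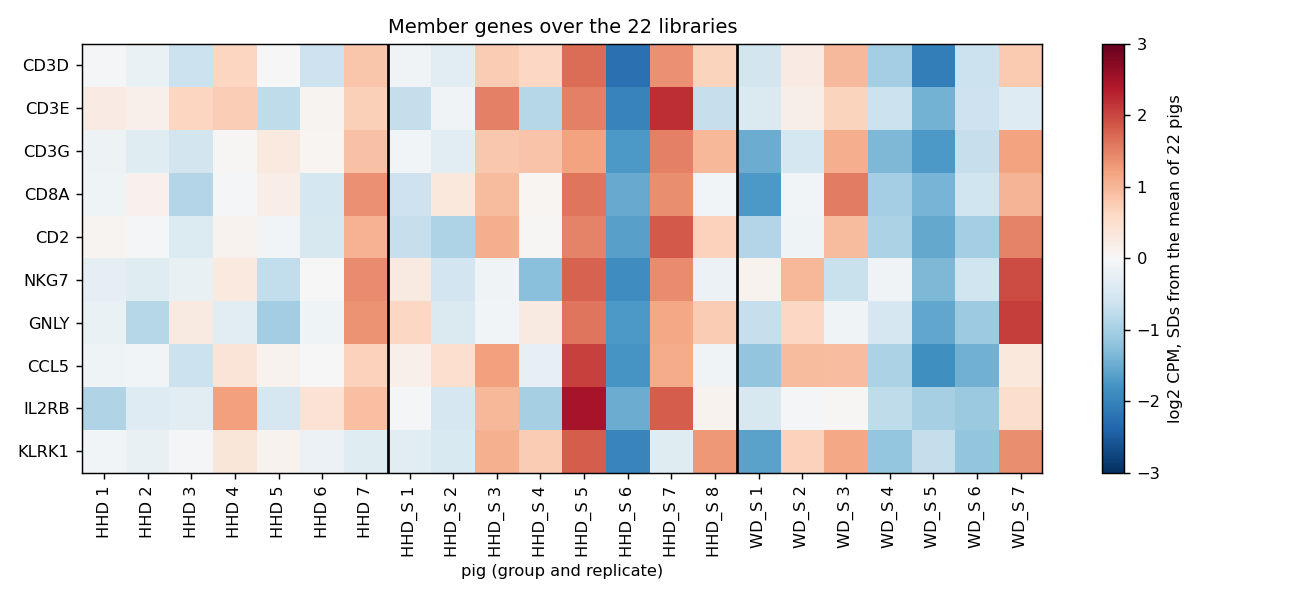
Colour gives log2 CPM of each member gene (rows) in each of the 22 pigs (columns, by group and replicate) as SDs from the gene's mean over all pigs. Columns HHD_S 5 and HHD_S 7 are red for most genes, columns HHD_S 6 and WD_S 5 are blue, and KLRK1 in HHD_S 7 departs from its column.

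Among the chains of the T cell receptor complex, CD3D (gene ENSSSCG00000015093, Sscrofa11.1 chromosome 9, 45640475 to 45644153) had a lowest, median and highest level of 34.8, 52.5 and 79.4 CPM in WD_S, 51.2, 60.0 and 76.9 CPM in HHD, and 33.2, 72.8 and 96.5 CPM in HHD_S. The 3 ranges overlapped, and that of HHD lay within that of HHD_S. CD3D differed by -0.25 (log2, SE 0.190) in WD_S against HHD_S and by 0.17 (SE 0.188) in HHD_S against HHD (edgeR adjusted p = 0.9995 and 0.9993).

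CD3G (ENSSSCG00000015094, chromosome 9, 45645243 to 45656779), which lies 1089 bases from CD3D, had the largest negative log2 difference of the members in WD_S against HHD_S. Its lowest, median and highest levels were 28.3, 39.9 and 74.6 CPM in WD_S, 41.7, 50.5 and 66.8 CPM in HHD, and 28.2, 65.9 and 82.1 CPM in HHD_S. WD_S held a low set of 5 pigs and a pair of high ones, WD_S 3 and WD_S 7, which overlapped the upper part of HHD_S. The log2 difference of WD_S against HHD_S was -0.38 (SE 0.228), with a 95% interval from -0.86 to 0.09 and an edgeR adjusted p of 0.9995.

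CD3E (ENSSSCG00000040140, chromosome 9, 45619730 to 45633972), 6502 bases on the other side of CD3D, had levels of 27.1, 36.0 and 49.3 CPM (lowest, median, highest) in WD_S, 32.7, 43.7 and 50.6 CPM in HHD, and 22.7, 36.4 and 77.6 CPM in HHD_S. HHD_S split into 3 pigs at 63.1 to 77.6 CPM, above every pig of the other groups, and 5 pigs at 39.4 CPM or lower. The log2 difference was -0.25 (SE 0.199) in WD_S against HHD_S and 0.06 (SE 0.196) in HHD_S against HHD, neither passing edgeR's test (adjusted p = 0.9995 and 0.9993).

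The products of these genes join in 1 complex, and their levels correlated over the 22 pigs to different degrees, a difference that was not tested. Log2 CPM of CD3D and CD3G had a Pearson r of 0.92 (Spearman rho 0.92), CD3E and CD3D had r = 0.74 (rho 0.62; 0.59 within pool 3 and 0.85 within pool 4), and CD3E and CD3G had r = 0.62 (rho 0.49, adjusted permutation p = 0.0032 and 0.031). The latter was 0.56 within pool 3, 0.67 within pool 4 and 0.45 without the 2 pigs farthest from the median of CD3E. By group, CD3E and CD3G had r = 0.68 in WD_S, -0.05 in HHD and 0.75 in HHD_S. For CD3E and CD3D these values were 0.88, 0.31 and 0.80. Within a library the ratio of CD3E to CD3G CPM ran from 0.478 to 1.175, with a median of 0.866. It was lowest in HHD_S 4 (0.478), HHD_S 8 (0.479), WD_S 7 (0.488) and HHD 5 (0.593), pigs of all 3 groups and both pools. In HHD_S 4, for example, CD3G stood at 66.5 CPM and CD3E at 31.8 CPM, whereas HHD_S 3 had 65.4 and 63.2 CPM. The CD3D to CD3G ratio spanned less, from 1.009 to 1.711. Whether the strands of these neighbouring genes were told apart in the counting is not given in the sources used here.

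CD8A (ENSSSCG00000008217, chromosome 3, 57999228 to 58029768), a chain of the coreceptor of cytotoxic T cells, had levels of 44.3, 63.1 and 122.9 CPM in WD_S, 57.8, 74.9 and 116.9 CPM in HHD and 47.3, 80.6 and 125.8 CPM in HHD_S. The top of each group was nearly equal. In HHD, 1 pig (HHD 7) stood at 116.9 CPM while the next was at 80.5 CPM. The log2 difference was -0.21 (SE 0.228) in WD_S against HHD_S and 0.15 (SE 0.226) in HHD_S against HHD, with edgeR adjusted p = 0.9995 and 0.9993.

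CD2 (ENSSSCG00000006736, chromosome 4, 103963802 to 103976971), an adhesion receptor of T cells and natural killer cells, ranked the pigs much as CD3G and CD3D did (r = 0.92 with each). Its lowest, median and highest levels were 56.7, 68.6 and 134.4 CPM in WD_S, 76.9, 86.7 and 118.3 CPM in HHD and 55.4, 98.1 and 148.9 CPM in HHD_S. All 3 ranges overlapped, with HHD 7 again apart from its group. The log2 differences were -0.22 (SE 0.210) in WD_S against HHD_S and 0.16 (SE 0.208) in HHD_S against HHD, and edgeR gave adjusted p = 0.9995 and 0.9993.

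**Figure D2:**
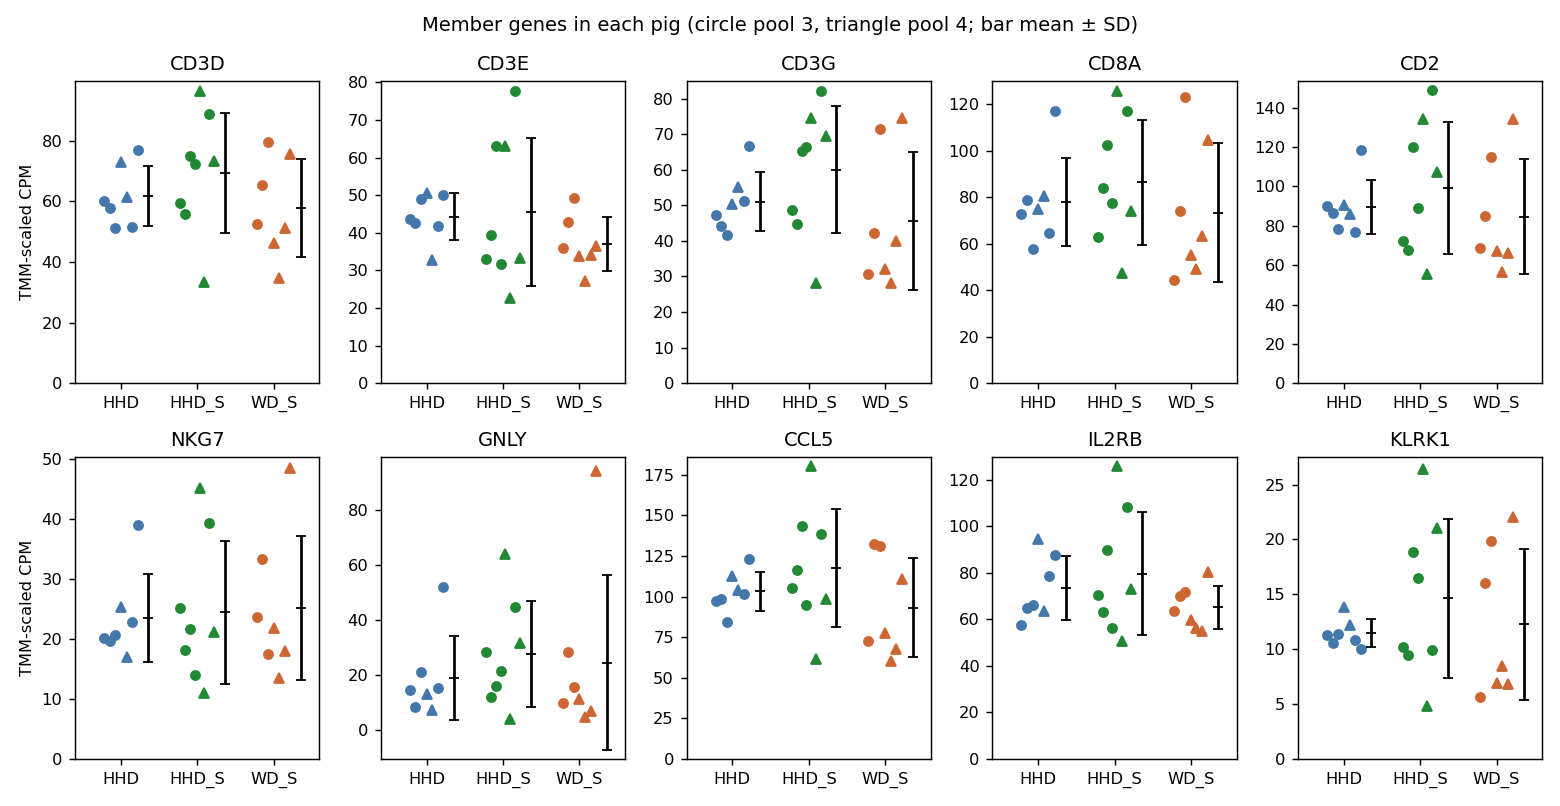
TMM-scaled CPM (vertical axis, linear) of each member gene in each pig by group, with circles for pool 3, triangles for pool 4 and black bars for the mean ± SD (7, 8 and 7 pigs). The groups overlap for every gene, and single pigs such as WD_S 7 for GNLY (94.4 CPM) stand apart from their group.

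GNLY (ENSSSCG00000008228, chromosome 3, 59067327 to 59072034), which encodes granulysin, a pore-forming protein of cytotoxic granules, was the most variable member. It ran from 4.23 CPM in HHD_S 6 (89 reads) to 94.4 CPM in WD_S 7 (1424 reads). Its levels were 4.84, 11.3 and 94.4 CPM (lowest, median, highest) in WD_S, 7.38, 14.5 and 52.0 CPM in HHD and 4.23, 25.0 and 64.2 CPM in HHD_S. The groups overlapped almost wholly, and WD_S held both the highest value and, at 4.84 CPM, nearly the lowest. After group and pool were fitted, GNLY kept an SD of 1.22 on the log2 scale, larger than that of 99.1% of tested genes (median gene 0.298). The log2 difference of -0.23 (SE 0.636) in WD_S against HHD_S had a 95% interval from a 0.338-fold to a 2.15-fold level (edgeR adjusted p = 0.9995). Single pigs turned its size and its sign. Without WD_S 7 the log2 difference was -1.18 (unadjusted p = 0.0369, edgeR adjusted p = 0.893), and without HHD_S 5 it was 0.20, the opposite sign.

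NKG7 (ENSSSCG00000003231, chromosome 6, 58496089 to 58497827), a granule membrane protein, had levels of 13.4, 21.8 and 48.5 CPM in WD_S, 17.0, 20.7 and 39.1 CPM in HHD and 11.0, 21.4 and 45.1 CPM in HHD_S. The 3 medians were close, and each group held a pig or a pair far above the rest: HHD 7 at 39.1 CPM, HHD_S 5 and HHD_S 7 at 45.1 and 39.3 CPM, and WD_S 7 at 48.5 CPM. The log2 differences were 0.04 (SE 0.297) in WD_S against HHD_S and 0.06 (SE 0.295) in HHD_S against HHD, neither passing edgeR's test (adjusted p = 0.9995 and 0.9993). NKG7 and GNLY varied together over the pigs (r = 0.86, rho 0.73, adjusted permutation p = 4.5e-05 and 0.00046), and within both pools (r = 0.70 and 0.94).

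CCL5 (ENSSSCG00000017705, chromosome 12, 39652731 to 39659121), a chemokine that cytotoxic T cells and natural killer cells store and release, had levels of 60.4, 77.7 and 132.2 CPM in WD_S, 84.5, 101.6 and 122.9 CPM in HHD and 61.4, 111.1 and 180.2 CPM in HHD_S. WD_S fell into 4 pigs at 60.4 to 77.7 CPM and 3 at 111.0 CPM or more, and HHD_S 5 had the highest value of all. The log2 difference was -0.31 (SE 0.193) in WD_S against HHD_S and 0.20 (SE 0.192) in HHD_S against HHD (edgeR adjusted p = 0.9995 and 0.9993).

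IL2RB (ENSSSCG00000029668, chromosome 5, 10610094 to 10650315), the beta chain of the IL-2 and IL-15 receptors, spanned the least, 2.50-fold over the 22 pigs. Its levels were 55.0, 63.6 and 80.2 CPM in WD_S, 57.6, 66.2 and 94.3 CPM in HHD and 50.5, 71.6 and 126.1 CPM in HHD_S. It had the smallest unadjusted p of any member, 0.0977 in WD_S against HHD_S, where the log2 difference was -0.30 (SE 0.171) and the edgeR adjusted p was 0.9995. Both the lowest and the highest pig, HHD_S 6 and HHD_S 5, belonged to HHD_S.

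KLRK1 (ENSSSCG00000040465, chromosome 5, 61646691 to 61655386) encodes NKG2D, an activating receptor for stress-induced ligands on epithelial cells. It was nearly constant in HHD, at 9.98, 11.3 and 13.9 CPM (lowest, median, highest), and spread in the groups given atorvastatin, at 5.66, 8.51 and 22.1 CPM in WD_S and 4.80, 13.3 and 26.5 CPM in HHD_S. The coefficient of variation was 11.1% in HHD, 56.0% in WD_S and 49.4% in HHD_S, a difference in spread that was not tested. HHD had the smallest coefficient of variation for 8 of the 10 members. It also had the fewest pigs of pool 4 (2, against 4 in WD_S and 3 in HHD_S). Every member had a larger coefficient of variation in pool 4 than in pool 3, for KLRK1 57.25% against 33.51%. Whether the spread goes with drug or with pool was not tested. The log2 difference of KLRK1 was -0.27 (SE 0.321) in WD_S against HHD_S and 0.34 (SE 0.322) in HHD_S against HHD, without passing edgeR's test (adjusted p = 0.9995 and 0.9993).

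Read as a list, WD_S against HHD_S sets the Western pattern against the heart healthy pattern with its fish oil capsules, both under atorvastatin. In that comparison 9 of 10 members had a negative log2 difference, with NKG7 the exception, and their median was -0.25, beside a median of -0.01 and 52.9% negative over all tested genes. No member had an adjusted p of 0.05 or lower, as no gene did (0.0% of 13626), and no member had an unadjusted p under 0.05, which 2.92% of all genes had. Single HHD_S pigs moved these values both ways. Without HHD_S 5, the highest pig for 5 members, the median was -0.09 with 8 members negative, and for example CD3D stood at -0.12, CD3E at -0.08, CD8A at -0.06, CCL5 at -0.12 and IL2RB at -0.13. Without HHD_S 6, the lowest pig for 8 members, the median was -0.38, and 4 members had an unadjusted p under 0.05 (CD3G 0.0238, IL2RB 0.0269, CCL5 0.0336 and CD3D 0.0397), and the edgeR adjusted p of each was 0.979.

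Atorvastatin against none under the heart healthy pattern, HHD_S against HHD, gave 10 of 10 positive log2 differences with a median of 0.16, beside 52.6% positive over all tested genes. That count was 7 of 10 with limma's quality weights (median 0.01), where CD3E, CD2 and KLRK1 turned negative (-0.18, -0.10 and -0.046), and 7 of 10 in edgeR without HHD_S 5 (median 0.06). The smallest unadjusted p was 0.298 (CD3G). Again no member was called, with 0.0% of genes called at an adjusted p of 0.05 and 1.81% having an unadjusted p under 0.05. WD_S against HHD, in which diet and drug both differ, gave 7 negative and 3 positive members with a median of -0.07, and between 0 positive (without WD_S 7) and 6 (without WD_S 5) with 1 pig left out. None was called and none had an unadjusted p under 0.05, beside 0.00734% and 3.41% of all genes. These 3 comparisons share libraries, and the 10 genes vary together over pigs, so their common signs are not separate observations.

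A test for any difference among the 3 groups called 0 members, with 0.00734% of genes called at an adjusted p of 0.05 and 2.13% having an unadjusted p under 0.05, a count that was also 0 for the members. DESeq2 and limma likewise called no member in any pair of groups. The mean order was HHD_S, then HHD, then WD_S for 7 members, but no neighbouring pair in that order passed the test for any member. For CD3D the 95% interval of WD_S against HHD_S ran from 0.639-fold to 1.11-fold, for IL2RB from 0.635-fold to 1.05-fold, and for KLRK1 from 0.519-fold to 1.32-fold. Pools did not separate the members either, the smallest unadjusted p of pool 4 against pool 3 being 0.116 and the edgeR adjusted p 0.916.

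**Figure D3:**
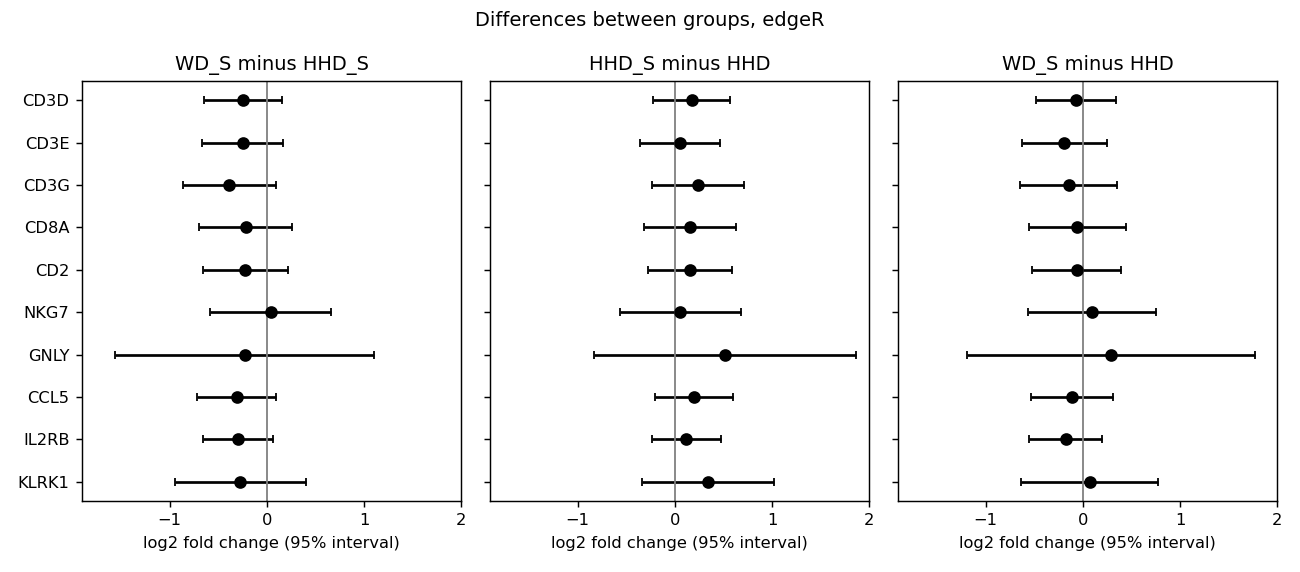
Log2 fold change (points) from edgeR for each member in the 3 comparisons between groups, with an approximate 95% interval (bars) built from its SE. The vertical line marks no difference. Every interval crosses 0, and that of GNLY is the widest, from -1.56 to 1.11 in WD_S minus HHD_S.

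Over the 22 pigs all 45 pairs of members correlated positively in log2 CPM. Pearson r ran from 0.43 to 0.92 with a median of 0.75. In permutation tests (100000 resamples, two-sided, adjusted by Benjamini-Hochberg over the 77 relations computed), 44 pairs passed by Pearson's r and 42 by Spearman's rho. Without the 2 pigs farthest from the median of the first gene of the pair, r was positive in all 45 pairs, with a median of 0.69. Within pool 3 the r was positive in 44 pairs (median 0.58) and within pool 4 in 45 (median 0.87). Within WD_S and within HHD_S it was positive in 45 pairs (medians 0.81 and 0.82), and within HHD, the least variable group, in 37 (median 0.54). These r values do not say from which cell each transcript came.

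KLRK1 and NKG7 were the least tied pair, with r = 0.43 (rho 0.29, adjusted permutation p = 0.056 and 0.22). Their r was -0.29 in pool 3 and 0.82 in pool 4, and without the 2 farthest pigs it was 0.18. Single pigs show how they parted. HHD_S 7, with the highest CD3E, CD3G and CD2 of all pigs, had KLRK1 at 9.93 CPM, below the median of 11.1 CPM. HHD 7, the highest of its group for CD8A, CD2, NKG7 and GNLY, had the lowest KLRK1 of that group, 9.98 CPM. By contrast WD_S 3 had KLRK1 at 19.9 CPM and CD8A at 122.9 CPM with NKG7 at only 17.5 CPM. HHD_S 4 was alike in this, with CD3G at 66.5 CPM and NKG7 at 13.9 CPM.

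**Figure D4:**
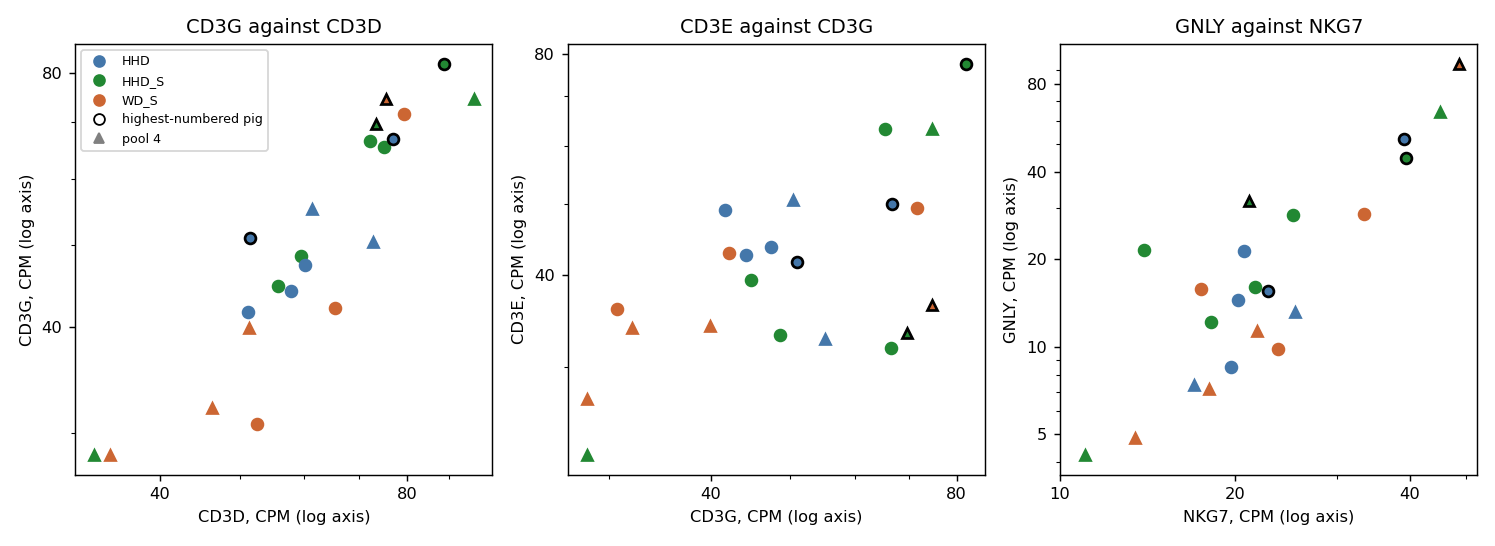
CPM of one member against another in each pig on log axes, coloured by group, with triangles for pool 4 and a black rim for the 5 pigs with the highest numbers. CD3G follows CD3D closely (r = 0.92), CD3E follows CD3G less (r = 0.62) with several pigs low in CD3E, and GNLY spans a wider range than NKG7 (r = 0.86).

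Genes of the same cells, taken from lists, followed the members to different degrees. CD3E was the reference gene planned for this, and CD3D, which had the higher r with the first lists below, was added after the data were seen. CD3E had r = 0.78 with the mean of the cytotoxic granule list, 0.81 with T cell receptor signalling genes and 0.65 with natural killer receptors and adaptors (adjusted permutation p = 7.3e-05, 7.3e-05 and 0.0019; 0.72, 0.82 and 0.42 in pool 3, and 0.82, 0.80 and 0.84 in pool 4). The mean log2 CPM of the cytotoxic granule list, which includes the granzyme GZMB, the granule proteoglycan SRGN and the protease inhibitor CST7, correlated with CD3D at r = 0.96 (rho 0.95, adjusted permutation p = 4.5e-05; r = 0.95 in pool 3 and 0.96 in pool 4, and 0.94 without the 2 farthest pigs). For the list of T cell receptor signalling genes the r with CD3D was 0.90 (rho 0.88, adjusted permutation p = 4.5e-05; 0.79 in pool 3, 0.97 in pool 4). For natural killer receptors and adaptors it was 0.83 (rho 0.80, adjusted permutation p = 7.3e-05; 0.56 in pool 3, 0.96 in pool 4). Genes of IL-2 and IL-15 signalling were less tied to CD3D (r = 0.58, rho 0.60, adjusted permutation p = 0.0079) and did not pass with CD3E (0.38, adjusted permutation p = 0.099). T cell and natural killer transcription factors did not pass with CD3D (0.35, rho 0.18, adjusted permutation p = 0.13; 0.03 in pool 3, 0.62 in pool 4) and had r = 0.60 with CD3E (adjusted permutation p = 0.0049). The unadjusted p behind the lowest of these values is the smallest that 100000 resamples can give.

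For markers of other cell types the r with CD3D was 0.27 with B cell markers, 0.28 with plasma cell markers, 0.06 with macrophage and dendritic markers, -0.07 with enterocyte markers and -0.38 with fibroblast and muscle markers, and none passed the permutation test (adjusted p from 0.096 to 0.80). The pools differed here. For B cell markers the r was 0.03 in pool 3 and 0.74 in pool 4, and for fibroblast and muscle markers -0.71 and -0.30. CD3E differed from CD3D here in size of r. It correlated with the adhesion and homing list, which holds the gut-homing integrin subunit ITGB7, at r = 0.84 (rho 0.83, adjusted permutation p = 4.5e-05; 0.77 in pool 3, 0.86 in pool 4), where CD3D had 0.49. CD3E also had r = 0.52 with B cell markers and 0.57 with plasma cell markers (adjusted permutation p = 0.019 and 0.0077). Both weakened to 0.22 and 0.39 without the 2 farthest pigs, and so rest partly on those pigs. They were 0.51 and 0.53 within pool 3, and 0.58 and 0.54 within pool 4. By group they were high only in HHD_S (0.82 and 0.85), against -0.08 and 0.16 in WD_S and 0.20 and 0.19 in HHD. Nor were these the only other cells: CD3E had r = 0.44 with crypt proliferation markers (rho 0.48, adjusted permutation p = 0.05 and 0.035). That r was -0.0043 within WD_S, 0.29 within HHD and 0.77 within HHD_S. With macrophage and dendritic markers CD3E had r = 0.39 (rho 0.45, adjusted permutation p = 0.096 and 0.049), and by group -0.02 in WD_S, 0.44 in HHD and 0.71 in HHD_S. Whether these r values differ between CD3E and CD3D was not tested.

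**Figure D5:**
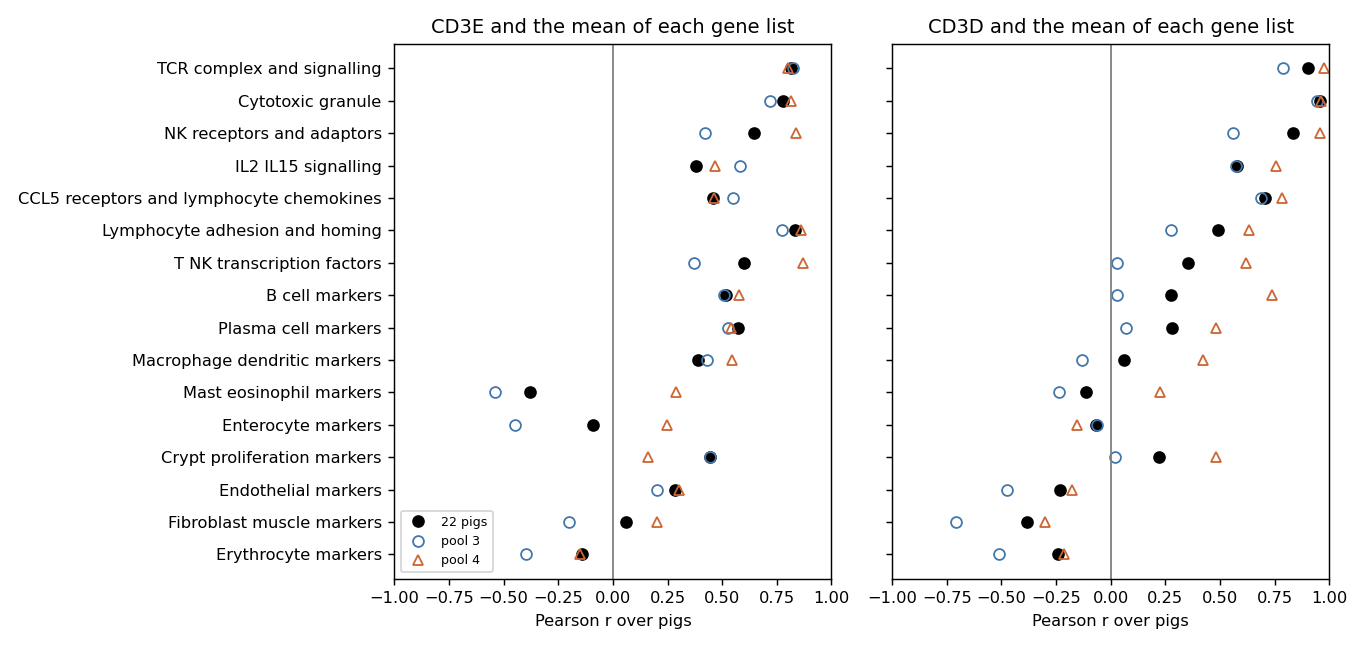
Pearson r over pigs (horizontal axis) of CD3E (left) and CD3D (right) with the mean log2 CPM of each gene list, for all 22 pigs (black), pool 3 (open circles) and pool 4 (open triangles). Cytotoxic granule and T cell receptor signalling genes lie at the right in both panels (0.96 and 0.90 with CD3D), some lymphocyte lists lie among those of other cells, such as IL-2 and IL-15 signalling at 0.38 with CD3E, and the fibroblast and muscle list lies at -0.38 with CD3D.

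The genes whose pattern over the pigs was most like the mean z-score of the 10 members, of 11019 genes compared, were IKZF3 (r = 0.94), CST7 (0.94), CD200R1 (0.92), P2RX5 (0.92), PRKCQ (0.92), CD247 (0.91), CD244 (0.91) and CRTAM (0.90). IKZF3 is a lymphocyte transcription factor, CD247 the zeta chain of the T cell receptor complex, PRKCQ a kinase of T cell receptor signalling, and CD244 and CRTAM receptors of cytotoxic lymphocytes. IKZF3 ran from 31.2 to 80.9 CPM and had r = 0.94 in pool 3 and 0.95 in pool 4. The genes with the lowest r were FOLR2 (-0.79), ESRP2 (-0.76), ECHDC3 (-0.76) and LRRK1 (-0.76). FOLR2 is a folate receptor of tissue macrophages, and ESRP2 an epithelial splicing factor.

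Between the groups, the other lymphocyte genes gave no call. The 7 lists of genes tied to lymphocytes held 105 symbols, of which 97 were in the files and 93 tested. They are not confined to genes of lymphocytes, and include for example the epithelial chemokine gene CCL25. In WD_S against HHD_S, 60 genes had a negative and 33 a positive log2 difference, beside 52.9% negative over all tested genes. EdgeR called 0 of them. An unadjusted p under 0.05 was reached by 4 of the 93, against the 2.92% of all genes. Of these, CCL3L1, a chemokine that shares receptors with CCL5, had a log2 difference of -0.81 (SE 0.348, unadjusted p = 0.0298), and ITGB2, the common beta chain of leukocyte integrins, had one of 0.45 (SE 0.178, unadjusted p = 0.0197). The adjusted p from edgeR was 0.9995 for both. CCL3L1 was low, at a mean of 1.18 CPM in WD_S and 1.98 CPM in HHD_S.

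Of 22 T cell receptor signalling genes, 18 had a negative difference in WD_S against HHD_S (median -0.12). CD8B, the partner chain of CD8A, was lowest in p among them, with a log2 difference of -0.36 (SE 0.203, edgeR adjusted p = 0.9995). Its mean was 29.6 ± 8.87 CPM (SD, n = 7) in WD_S and 39.1 ± 14.4 CPM (SD, n = 8) in HHD_S. Of the 10 cytotoxic granule genes tested, 8 were negative (median -0.17). GZMB varied widely between pigs, at 42.4 to 305.7 CPM with a median of 93.0 CPM. TYROBP, an adaptor of natural killer and myeloid receptors, stood at +0.33 (SE 0.151, unadjusted p = 0.0388, edgeR adjusted p = 0.9995), opposite in sign to most of its list, where 6 of the 9 genes tested were negative.

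The genes around IL2RB and CCL5 were more evenly divided. Of 11 genes of IL-2 and IL-15 signalling, 6 had a negative difference in WD_S against HHD_S (median -0.03). CISH, a feedback inhibitor that STAT5 induces, had the smallest p of them and the opposite sign to IL2RB, at +0.37 (SE 0.179, edgeR adjusted p = 0.9995), and was another of the 4 genes with an unadjusted p under 0.05. The kinase JAK1, which IL2RB engages, stood at 393 ± 57.9 CPM (SD, n = 7) in WD_S and 366 ± 47.6 CPM (SD, n = 8) in HHD_S. Of 15 receptors and chemokines listed with CCL5, 10 were negative (median -0.05), among them the gut-homing receptor CCR9 at -0.15. Its ligand CCL25, made by the small intestinal epithelium, was at +0.07. Adhesion and homing genes were 7 positive and 5 negative, and T cell and natural killer transcription factors 7 and 7.

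In HHD_S against HHD, 61 of the 93 genes had a positive and 32 a negative difference, beside 52.6% positive over all tested genes. EdgeR called 0 of the 93. An unadjusted p under 0.05 was reached by 2, beside 1.81% of all genes. These were UNC13D, which primes cytotoxic granules for release (log2 difference 0.22, SE 0.0928), and ZNF683, a transcription factor of tissue-resident lymphocytes (0.54, SE 0.224). Both had an edgeR adjusted p of 0.9993. ZNF683 was low, at a mean of 1.84 CPM in HHD_S and 1.295 CPM in HHD. Natural killer genes were unevenly detected. KLRD1 was at 0 to 0.467 CPM and NCR1 at 0 to 0.543 CPM, both below the count filter, and KLRC1, NCR3, FCGR3A, GZMA and GZMH are not analysed here.

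No marker of another cell type was called between groups either. In WD_S against HHD_S, 12 of 13 macrophage and dendritic markers had a positive difference (median 0.22), beside 47.1% positive over all tested genes. The exception was LYZ (-0.10). The summed level of the 13 ran from 1389 to 3173 CPM in WD_S and from 943 to 4546 CPM in HHD_S. It includes LYZ, at 283 to 3776 CPM over all pigs, and so does not stand for the 12 others. All 13 were detected, and their part in the members' differences was not tested. In HHD_S against HHD, 9 of 9 fibroblast and muscle markers had a negative difference (median -0.29), beside 47.4% negative over all tested genes. Their summed levels were 607 to 2625 CPM in HHD_S and 626 to 3205 CPM in HHD. Their part was not tested either.

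The 5 pigs with the highest numbers in the sample titles (HHD 6, HHD 7, WD_S 7, HHD_S 7 and HHD_S 8) stood apart in many genes. A term for them, chosen after the data were seen, called 5.59% of tested genes, and of the members only GNLY. It ran from 15.6 to 94.4 CPM (median 44.7) in these 5 and from 4.23 to 64.2 CPM (median 13.2) in the other 17, overlapping. The log2 difference was 1.59 (SE 0.456, edgeR adjusted p = 0.0464). That call was lost in 15 of 22 fits that each left out 1 pig. In 14 of these the log2 difference stayed at 1.40 to 1.74, with adjusted p from 0.0542 to 0.229, and without WD_S 7 it was 0.95, with adjusted p = 0.390. NKG7, CD3G and CD2 had log2 differences of 0.68, 0.51 and 0.47, with edgeR adjusted p = 0.0986, 0.106 and 0.113. The summed level of 9 fibroblast and muscle markers was 607 to 1925 CPM in these 5 pigs (median 875) and 972 to 3205 CPM in the other 17 (median 2119), and its part in the GNLY difference was not tested. Without these pigs all 45 pairs of members still correlated positively (median r = 0.77).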

How the data were processed

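Polyadenylated RNA from jejunal mucosa was sequenced as single-end reads, and only RNA with a quality indicator above 8 was used, per the labels' protocols. The authors deposited a raw count per gene, of reads placed uniquely in exons of Sscrofa11.1 with the CLC workbench, per the labels. Its version and its strand setting: not given in the sources used here. Genes with a near-identical copy are therefore uncertain. Gene positions are from RefSeq's table for that assembly.

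The counts were filtered (filterByExpr, minimum count 10), scaled by TMM and fitted over 22 libraries in edgeR 4.0.16 (R 4.3.3) with group and library pool, giving 18 residual degrees of freedom. Two-sided quasi-likelihood p-values were adjusted by Benjamini-Hochberg over 13626 genes, with 0.05 as the threshold. The biological coefficient of variation was 25.9%. Levels for correlations were log2 CPM with a prior count of 2. The edgeR fit of WD_S against HHD_S was tried on simulated counts in which genes varied independently and no pool effect was set. The other comparisons, DESeq2 and limma were not tried on simulated data.

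Named genes are the 10 members and the 8 most and 4 least like the member mean. Of each list they are the 2 with the highest mean CPM, any gene called and that with the smallest p per comparison. The text prints a selection of the list genes, besides ITGB7, CST7, KLRD1, NCR1, VIL1 and CDX1, named after their values were seen. Members and lists were chosen with earlier results of these data known. Alternatives were DESeq2 1.42.0, limma 3.58.1 with quality weights, RLE and total-count scaling, other filters, single pools, no pool term, no robust estimation, only the groups compared, and leaving out each library. The labels give no replicate numbers shared between groups.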

Additional observations from a re-analysis of the deposited data

Results flagged for a closer look

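Of 30 combinations of a member and a group, 5 had a highest pig separated from its group by a gap larger than Dixon's 95% critical value. The gaps were taken on CPM and not on log2 CPM, the scale of the fits and correlations. Chance exceeds that value in about 1 in 20 groups only where values are normally distributed, which was not tested for CPM. That rate is thus not a measure for the 5 flags, and whether they hold on log2 CPM was not tested. The 10 genes vary together, so the 5 flags are not separate events. In HHD 7, CD8A stood at 116.9 CPM, CD2 at 118.3 CPM, NKG7 at 39.1 CPM and GNLY at 52.0 CPM, each the highest of the 7 HHD pigs. In WD_S 7, GNLY stood at 94.4 CPM, the highest of the 7 WD_S pigs. Both pigs are among the 5 with the highest numbers in the sample titles. KLRK1 in HHD 7 was 9.98 CPM, the lowest of its group.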

How the results depend on the processing

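No member was called in any of 13 alternative settings or 22 fits that left out 1 library, where the smallest adjusted p of a member was 0.711. Of 390 member fold changes in those settings 18 changed sign, and of 660 with 1 library left out 26 did, over 11 fold changes. None had passed the test, and the cause was not tested. The number of relations of CD3E with other members that passed by Pearson's r was 9 under RLE scaling, a prior count of 0.5, residuals after group and pool, and without the 5 highest-numbered pigs, as in the values reported. By Spearman's rho, CD3E and KLRK1 did not pass in the values reported (rho 0.36, adjusted permutation p = 0.13).

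In log2 units, the sign changed in pool 3 alone for KLRK1 in WD_S against HHD_S (0.10), NKG7 in HHD_S against HHD (-0.059), and CD3D (0.15), CD8A (0.044), GNLY (-0.30) and CCL5 (0.15) in WD_S against HHD. It changed in pool 4 alone for NKG7 in WD_S against HHD_S (-0.022), CD3E in HHD_S against HHD (-0.062) and KLRK1 in WD_S against HHD (-0.24). With limma's quality weights it changed for CD3E in WD_S against HHD_S (0.0042), for CD3E (-0.18), CD2 (-0.10) and KLRK1 (-0.046) in HHD_S against HHD, and for KLRK1 in WD_S against HHD (-0.22). Without the 5 highest-numbered pigs, a setting chosen after seeing the data, it changed for NKG7 in WD_S against HHD_S (-0.072), CD3E in HHD_S against HHD (-0.067), and GNLY (-0.0080) and KLRK1 (-0.17) in WD_S against HHD.

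With 1 library left out, the log2 difference in WD_S against HHD_S ran from -0.20 (without WD_S 7) to 0.31 (without HHD_S 5) for NKG7 and from -1.18 (without WD_S 7) to 0.20 (without HHD_S 5) for GNLY. In HHD_S against HHD it ran from -0.084 (without HHD_S 7) to 0.15 (without HHD 4) for CD3E, from -0.14 (without HHD_S 5) to 0.22 (without HHD 7) for NKG7 and from -0.011 (without HHD_S 5) to 0.20 (without HHD 4) for IL2RB. In WD_S against HHD it ran from -0.17 (without WD_S 3) to 0.0066 (without WD_S 5) for CD3D, from -0.26 (without WD_S 3) to 0.062 (without WD_S 1) for CD8A, from -0.21 (without WD_S 7) to 0.0052 (without HHD 7) for CD2, from -0.12 (without WD_S 7) to 0.25 (without HHD 7) for NKG7, from -0.47 (without WD_S 7) to 0.75 (without HHD 7) for GNLY, and from -0.15 (without WD_S 3) to 0.21 (without WD_S 1) for KLRK1.

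Over all genes, the number called in WD_S against HHD_S was 2 without the pool term, 4 with DESeq2, 1 with limma, 2 without the 5 highest-numbered pigs and 2 with a term for them. In HHD_S against HHD it was 1 with DESeq2. In WD_S against HHD it was 0 in pool 3, 0 in pool 4, 0 with total counts, 2 with DESeq2 and 2 with the term for those pigs. For any difference it was 0 in pool 3, 0 in pool 4, 0 with total counts, 3 with DESeq2 and 2 with that term. With 1 library left out it was 0 to 2 in WD_S against HHD_S, 0 to 1 in WD_S against HHD and 0 to 1 for any difference. Members with an unadjusted p under 0.05 in WD_S against HHD_S were 0 to 4, with 4 without HHD_S 6, 2 without WD_S 7 (CD3G 0.0183 and GNLY 0.0369) and 1 without WD_S 3 (CD3G 0.025).

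No paired analysis was possible because the labels give no replicate numbers shared between groups. The lowest count of a member in a library was 89 reads. Neither group size nor depth was varied.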
